A study of Mus musculus with 29 samples.

Results

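The RNA of bipolar cells as a whole class was set against that of rods in adult mouse retina. The comparison used 6 of the 29 libraries of the series, 3 of all bipolar cells (pan-BC) and 3 of rods, and covered all 24062 genes of the deposited RNA-seq table, of which 14024 were tested because they had reads enough. Pan-BC libraries came from Otx2-GFP+/- mice at postnatal day 47, 44 and 44, in which GFP sits at the endogenous Otx2 locus, so that 1 copy of Otx2 carries the reporter. Photoreceptors of this line also carry some GFP, less than bipolar cells do, so the bipolar cells were separated by brightness in a single round of fluorescence-activated sorting (FACS) from dissociated retina. Rod libraries came from Nrl-eGFP mice at postnatal day 56, which express GFP in rods from the Nrl promoter, also with a single sort, and were re-analysed from earlier work of the same laboratory. Cell class, reporter line, age and experiment therefore change together in this comparison and cannot be told apart. Bipolar cells split into ON (ON-BC) and OFF (OFF-BC) cells came from Otx2-GFP+/-; Grm6-YFP+/+ mice at day 42, 43 and 48. In these mice YFP from the Grm6 promoter marks ON cells, and OFF cells were sorted in 2 rounds. Photoreceptors came from Nrl-eGFP;NrlKO mice at day 56 (Nrl-/-, a surrogate for blue cones). Values of these populations are printed for orientation, but their libraries were part of the filter and of the fit of all 15 RNA libraries. The Nrl-/- levels also set some genes aside, as given below. The study calls the libraries of a population biological replicates, but the labels do not name the animals behind them. SEs and p-values rest on the spread between libraries within all populations of the fit, not only on that of the 6 libraries compared.

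Rods and bipolar cells are neighbours in the same circuit and arise from related progenitors. A rod catches light in an outer segment, a modified cilium, where the visual pigment activates transducin and a phosphodiesterase, cyclic nucleotide-gated channels close, and release of glutamate from the ribbon synapse falls. Bipolar cells receive that glutamate in their dendrites, ON cells through the metabotropic receptor mGluR6 and the channel TRPM1 and OFF cells through ionotropic receptors, and carry the signal along an axon to amacrine and ganglion cells.

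The labels were first checked against defining genes. Lhx4, a LIM-homeobox factor of bipolar cells, had 5679.9, 5954 and 5385 normalised reads in the pan-BC libraries and 17.5, 16.4 and 24.9 in the rod libraries. A normalised read is a read assigned to the gene, divided by 1 size factor per library. Nr2e3, the nuclear receptor that represses cone genes in rods, had 162, 235 and 235 in pan-BC and 24669, 39985 and 36497 in rods. Both marker genes separated the populations without overlap and in the direction of the labels. The log2 fold change, written throughout as pan-BC minus rods with its standard error (SE), was 8.13 ± 0.20 for Lhx4 (adjusted p = 1.45e-14) and −7.31 ± 0.26 for Nr2e3 (adjusted p = 1.06e-12). Adjusted p-values are those of limma's test that a change exceeds 2-fold, with Benjamini-Hochberg adjustment over all tested genes, and a gene was called at 0.05.

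Pan-BC libraries held 12445524 to 15569580 reads and rod libraries 18332615 to 20852758. The 10 genes with most reads took 8.92 to 9.35% of a pan-BC library and 20.02 to 23.55% of a rod library, and 15856 to 15997 genes had a read in pan-BC against 14263 to 14748 in rods. The summed level of 22 bipolar markers ran from 294917 to 328082 normalised reads in pan-BC and from 2381 to 3317 in rods, and that of 21 rod phototransduction genes from 74726 to 88851 and from 3487662 to 4815600. Markers of other retinal cells were also summed. Cone phototransduction genes, all 11 detected in both groups, reached 121119.6 to 150327 in pan-BC and 14338 to 15724 in rods. The 16 markers of Müller glia reached 8293 to 9837 against 2408 to 3975. The 24 amacrine, horizontal and ganglion cell markers summed to 1288 to 1382 against 2238 to 2515, and in rods Slc32a1, Tfap2c, Lhx1, Onecut1, Slc17a6, Pou4f2, Pou4f3, Thy1, Chat and Th were at 0; most of the rod sum was Slc6a9, a glycine transporter. The 22 vascular, immune and pigment epithelium markers summed to 2732 to 3185 against 296 to 353, with Pax2 at 0 in both groups and Mlana at 0 in rods; most of the pan-BC sum was Lyve1. The part of these other cells in the results below was not tested.

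**Figure D1:**
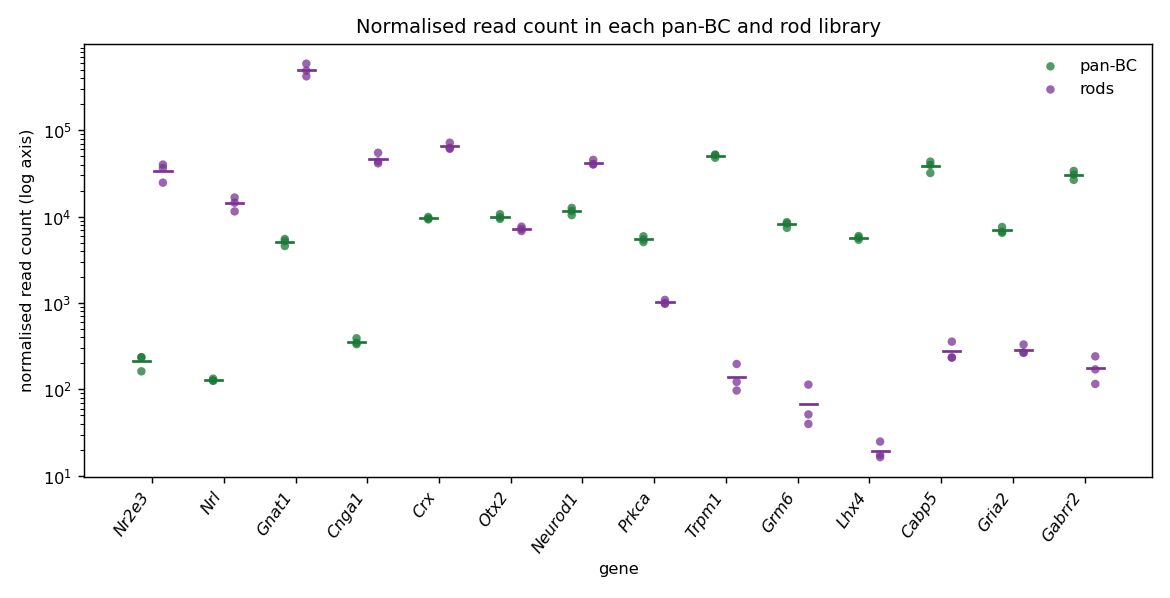
Normalised read count (log axis) of 14 rod, bipolar and shared genes in each library; points are the 3 pan-BC (green) and 3 rod (purple) libraries and dashes the group means. Lhx4 lies between 5385 and 5954 in pan-BC and between 16.4 and 24.9 in rods, Nr2e3 between 162 and 235 in pan-BC and between 24669 and 39985 in rods, and the groups of Otx2 lie closest to each other.

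The 2 transcriptomes differed widely, and the bipolar side of the difference held more genes and larger changes. Of 14024 genes tested, 6047 (43.1%) differed by more than 2-fold: 3836 (27.4%) were higher and 2211 (15.8%) lower in pan-BC. Genes higher in pan-BC made up 63.4% of the called genes, or 73.7% when libraries were scaled to their totals in place of the deposited size factors. The share was 57.2% (2654 higher and 1984 lower) when only genes with a mean of at least 50 normalised reads over the 6 libraries were tested. The median log2 fold change of those genes was −0.014, so the excess on the bipolar side was smaller without low genes. A further 65 genes passed the test as higher in pan-BC but were set aside by the carry-over rule of the study: on the fitted log2(value + 1) scale, their level in Nrl-/- photoreceptors was over 16-fold that in rods and at least 4-fold that in pan-BC. The median log2 fold change of all tested genes was 0.21, and it was 0.15 with TMM scaling and 0.55 with scaling to the library total, so changes are read against that shift.

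Genes higher in pan-BC differed by a median of 13.7-fold (median log2 fold change 3.78) and genes lower in pan-BC by a median of 5.02-fold (−2.33). Over 16-fold changes made up 1798 of the genes higher in pan-BC (46.9%) and 409 of the genes lower (18.5%). Over 256-fold, the counts were 155 and 13. In 404 of the genes higher in pan-BC no rod library held a read, while 33 of the genes lower in pan-BC had no read in any pan-BC library. The median rod level of a gene called higher was 4.62% of its pan-BC level, and the median pan-BC level of a gene called lower was 19.8% of its rod level. In bulk libraries fewer cells of a type and less RNA per cell cannot be told apart.

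In terms of reads the balance was the other way round. Genes lower in pan-BC took 51.5 to 53.6% of the reads of a rod library and 6.9 to 7.6% of a pan-BC library, whereas the more numerous genes higher in pan-BC took 37.4 to 38.6% of a pan-BC library and 4.2% of each rod library. For 3643 genes (26.0%) the 95% confidence interval of the log2 fold change lay between −1 and 1, and these took 29.4 to 29.9% of pan-BC and 23.2 to 24.6% of rod reads. The remaining 4269 genes were neither called nor bounded within 2-fold. The median SE over all tested genes was 0.19 on the log2 scale. It was 0.53 for genes with a mean under 50 normalised reads and 0.13 for those at 1000 or more, so changes of low genes are less certain.

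**Figure D2:**
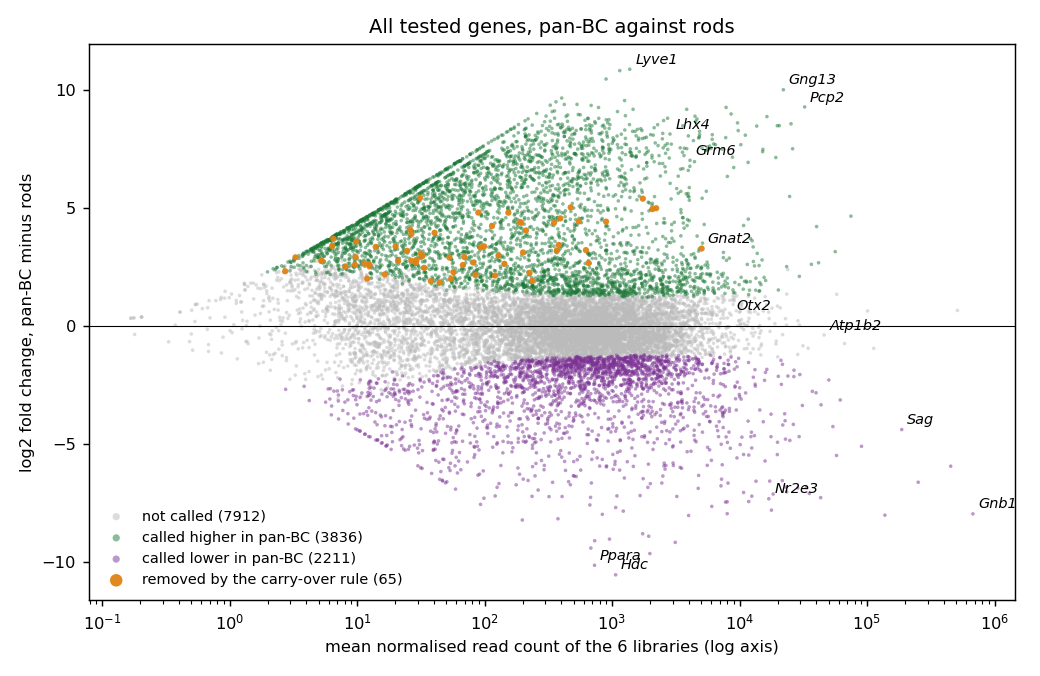
Log2 fold change (pan-BC minus rods) of the 14024 tested genes against their mean normalised read count over the 6 libraries (log axis); each point is 1 gene, coloured by whether it was called higher (3836), called lower (2211), removed by the carry-over rule (65) or not called. The cloud reaches densely to large positive changes at all levels, while Gnb1 and Sag at the far right of the lower side are among the most abundant genes.

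The promoters of the defining genes differed in accessibility as well, in a separate assay whose pan-BC mice had another genotype. ATAC-seq, which counts transposase insertions in open chromatin, had been made on 2 pan-BC libraries from Otx2-GFP+/-; Grm6-YFP+/+ mice (postnatal day 44 and 43) and 2 rod libraries from Nrl-eGFP mice (day 56), with 7937202 to 12345845 and 9665199 to 10890548 reads in the deposited regions. Of 108448 regions of 200 bases tested with the same limma test, 43735 (40.3%) were higher and 12179 (11.2%) lower in pan-BC, against 46401 and 19654 with edgeR. Among 16495 regions centred from 1000 bases before to 100 bases after a start site, here called promoter regions, 2833 (17.2%) were higher and 2274 (13.8%) lower.

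At Nr2e3 the promoter region gave 21.6 and 16 normalised reads in pan-BC and 489 and 475 in rods (log2 difference −4.62). At Sag, which encodes rod arrestin, the values were 73.6 and 60.4 against 536 and 523 (−2.97). At Samd7, a partner of Polycomb proteins in rods, they were 23.2 and 25.7 against 516 and 466 (−4.27). All 3 rod promoters were lower in both pan-BC libraries than in either rod library. At Lhx4 the region nearest the start site gave 96.0 and 145 against 5.5 and 5.4 (4.21). The Trpm1 promoter gave 80.0 and 99.2 in pan-BC and 0 in both rod libraries (adjusted p = 6.54e-07), and that of Cabp5, a calcium-binding protein of bipolar cells, gave 152 and 209.8 against 0 in both (adjusted p = 2.43e-09). The 3 bipolar promoters were thus near or at 0 reads in rods.

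The 250 bases before the start site of these 6 genes are printed 5′ to 3′ on the strand of the gene, from RefSeq's annotation of GRCm38.p6, as examples of promoters of 3 rod and 3 bipolar genes at which both assays separate the populations. Capitals mark TAATCC, the letters bound by CRX and OTX2, TAATTA, the letters of LIM homeodomains, and CAGATG, one form of the E-box bound by neural bHLH factors, each searched on both strands; TAATCC and TAATTA share their first 4 letters. The windows are chr9:59950080-59950329 on the minus strand for Nr2e3, chr1:87803430-87803679 on the plus strand for Sag, chr3:30746043-30746292 (plus) for Samd7, chr1:155742028-155742277 (minus) for Lhx4, chr7:64153585-64153834 (plus) for Trpm1 and chr7:13397905-13398154 (plus) for Cabp5. Each lies directly upstream of the annotated first exon.
Nr2e3: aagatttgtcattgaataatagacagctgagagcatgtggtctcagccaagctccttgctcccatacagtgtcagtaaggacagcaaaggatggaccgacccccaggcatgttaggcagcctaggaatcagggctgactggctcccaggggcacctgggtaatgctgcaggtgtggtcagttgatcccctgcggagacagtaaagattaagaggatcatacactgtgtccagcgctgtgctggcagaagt
Sag: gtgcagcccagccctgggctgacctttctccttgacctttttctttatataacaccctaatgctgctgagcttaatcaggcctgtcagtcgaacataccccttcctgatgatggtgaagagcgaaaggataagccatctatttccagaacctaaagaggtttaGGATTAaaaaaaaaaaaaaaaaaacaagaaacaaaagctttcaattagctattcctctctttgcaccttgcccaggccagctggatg
Samd7: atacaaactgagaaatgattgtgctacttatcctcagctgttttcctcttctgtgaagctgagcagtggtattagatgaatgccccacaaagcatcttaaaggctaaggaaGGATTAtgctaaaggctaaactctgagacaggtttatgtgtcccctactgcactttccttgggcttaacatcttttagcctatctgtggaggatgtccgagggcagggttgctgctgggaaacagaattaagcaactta
Lhx4: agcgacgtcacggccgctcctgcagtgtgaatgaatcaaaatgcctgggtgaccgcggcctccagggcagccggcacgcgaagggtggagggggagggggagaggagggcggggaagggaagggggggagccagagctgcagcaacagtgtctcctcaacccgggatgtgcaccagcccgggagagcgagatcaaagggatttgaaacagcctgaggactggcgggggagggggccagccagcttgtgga
Trpm1: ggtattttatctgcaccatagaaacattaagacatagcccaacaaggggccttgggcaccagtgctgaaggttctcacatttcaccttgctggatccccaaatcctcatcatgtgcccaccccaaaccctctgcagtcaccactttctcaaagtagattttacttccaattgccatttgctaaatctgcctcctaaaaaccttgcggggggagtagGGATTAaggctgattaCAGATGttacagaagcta
Cabp5: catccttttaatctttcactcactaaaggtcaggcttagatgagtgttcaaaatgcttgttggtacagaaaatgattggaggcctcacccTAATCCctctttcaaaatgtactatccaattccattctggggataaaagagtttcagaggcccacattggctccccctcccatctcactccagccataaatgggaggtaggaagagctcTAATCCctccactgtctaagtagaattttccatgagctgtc

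TAATCC starts at base −87 of the Sag window, −139 of Samd7, −34 of Trpm1, and −160 and −41 of Cabp5, counted back from the start site, and CAGATG at −18 of Trpm1. The Nr2e3 and Lhx4 windows hold none of the 3 strings. Trpm1 has another annotated start site, whose window (chr7:64185209-64185458, plus strand) is not printed and also holds none of them. Letters of the same kind were thus present before rod and bipolar genes alike. Over windows of 300 bases (250 before to 50 after the start), TAATCC was in 5.28% of those of genes higher in pan-BC, 7.73% of those of genes lower, 5.88% of those of all tested genes and 7.06% of all 32851 windows in the table. TAATTA was in 2.38, 2.88, 2.71 and 5.29% of the same sets, and CAGATG in 14.0, 11.7, 11.9 and 17.2%. These shares are descriptions and were not tested.

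Across the table, promoter regions of genes higher in pan-BC were called higher more often than lower, and those of genes lower in pan-BC the reverse, although most promoter regions were not called either way. Of 3748 promoter regions of genes higher in pan-BC, 39.8% were higher and 6.78% lower (median log2 difference 0.92). Of 2451 promoter regions of genes lower in pan-BC, 3.59% were higher and 24.8% lower (median −0.80). The corresponding values were 2.99 and 16.3% with a median of −0.71 at genes within 2-fold, and 14.8 and 14.5% with a median of −0.46 at all tested genes. The median at genes lower in pan-BC was thus close to that at genes within 2-fold, and the median at genes higher in pan-BC was the only positive one of the 4. Regions outside promoters, given to the gene with the nearest start site, had medians of 2.98 at genes higher, −0.57 at genes lower and 1.10 at all tested genes. The gene span had a median of 23.7 kb for genes higher, 27.2 kb for genes lower and 23.1 kb for all tested genes, and an upper quartile of 84.7, 57.1 and 57.7 kb.

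**Figure D3:**
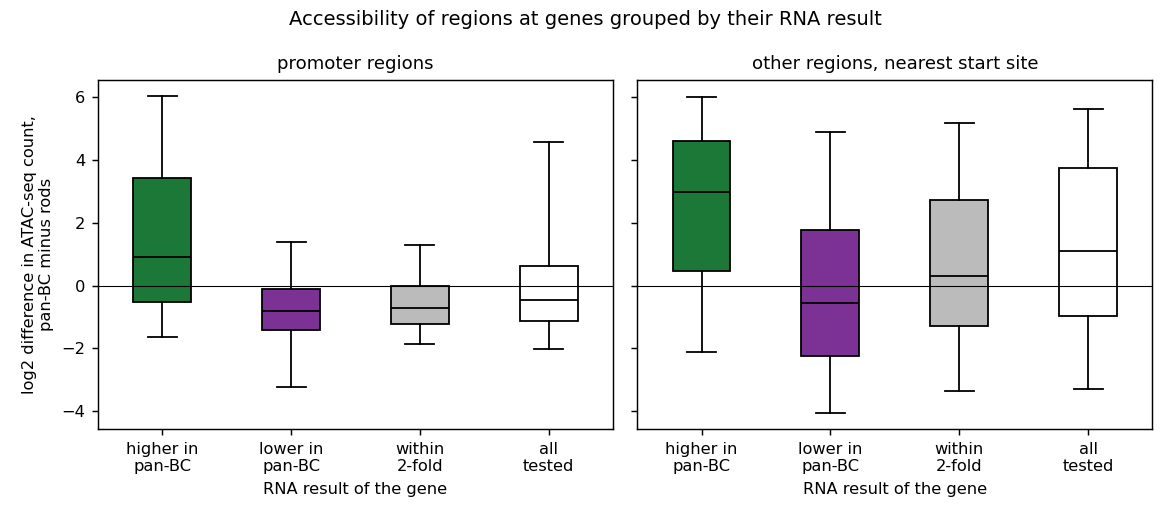
Log2 difference in ATAC-seq count (pan-BC minus rods) of promoter regions (left) and of other regions given to the nearest start site (right), grouped by the RNA result of their gene; boxes show the quartiles with a line at the median, and whiskers the 5th to 95th percentile. Promoter medians are 0.92 at genes higher in pan-BC, −0.80 at genes lower, −0.71 at genes within 2-fold and −0.46 at all tested genes.

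The genes with the largest rise from rods to pan-BC were nearly silent in rods and did not come from a single family. Lyve1, a hyaluronan receptor best known from lymphatic endothelium, had 2877, 2524 and 2851 normalised reads in pan-BC and 0, 0 and 2.16 in rods, a ratio of 4020-fold (95% counting interval 1112 to 33200, 2 reads in the lower group). It was also at 1666 in ON-BC and 5051 in OFF-BC, while the endothelial marker Pecam1 had 14.9, 13.1 and 7.34 in pan-BC and 194, 94.2 and 92.9 in rods (log2 fold change −3.29 ± 0.49, adjusted p = 0.000377). Lyve1 and Pecam1 thus went in opposite directions, and the list of vascular, immune and pigment epithelium markers was mixed. Of its 14 tested members, 2 were higher (Lyve1 and Rgs5) and 2 lower (Pecam1 and Csf1r). Which cells the Lyve1 RNA came from was not tested.

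Grin2b, the GluN2B subunit of NMDA receptors, had 2359, 2430.1 and 2106 in pan-BC and 0, 0 and 1.08 in rods, a ratio of 6772-fold (95% counting interval 1215 to 267500, 1 read in the lower group). Its call was lost with DESeq2, although the log2 fold change there was 12.62, and the reason was not tested. Slc7a14, a cationic amino acid transporter-like protein, had 1851, 1740.1 and 1792 against 0, 0 and 1.08, a ratio of 5259-fold (95% counting interval 944 to 207800, 1 read in the lower group). Both genes were far above the single read found in rods. Gng13, the G protein gamma subunit of ON bipolar cells, had 48505, 43975 and 39748 against 29.1, 37.9 and 65.9 and was 995-fold higher (adjusted p = 9.37e-14). Gnat3, the transducin-like alpha subunit gustducin of taste cells, had 887, 772 and 872 against 0, 1.02 and 0, 2466-fold (95% counting interval 442 to 97460, 1 read in the lower group).

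Cdc25c, a cell cycle phosphatase, had 729.7, 873 and 815 in pan-BC and 0 in all 3 rod libraries, which makes it at least 788-fold higher; its promoter region was not called. It was at 793 in ON-BC and 28.5 in OFF-BC. Fam135b had 2517, 2434 and 2566 against 2.91, 2.05 and 2.16 and was 1056-fold higher (adjusted p = 9.49e-15). Nrg1, the ERBB ligand neuregulin, had 1269, 913 and 1003 against 2.91, 0 and 0, a ratio of 1038-fold (95% counting interval 355 to 5034, 3 reads in the lower group). Stmn4, a tubulin-binding stathmin of neurons, had 713, 565 and 688 against 0 in all 3 rod libraries, at least 637-fold higher. These genes were picked among those whose pan-BC and rod libraries do not overlap, so the separation of the groups follows from the choice.

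Klk1b22, a glandular kallikrein with near-identical neighbours in its cluster, had 638, 878 and 663 in pan-BC and 0 in all 3 rod libraries, at least 715-fold higher. Reads could be split between copies of this family, so its value is uncertain. It was at 35.8 in ON-BC and 49.0 in OFF-BC, well below the pan-BC mean of 726. Such a pattern was rare: among the 3836 genes higher in pan-BC, 66 (1.72%) had a pan-BC mean over 2-fold above both the ON-BC and the OFF-BC mean, Grin2b among them (2298 against 373 and 1115). The pan-BC mice lacked Grm6-YFP and the ON-BC and OFF-BC mice carried it; the part of this difference was not tested.

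The genes with the largest fall were likewise close to absent from pan-BC. Hdc, histidine decarboxylase, which makes histamine, had 0, 2.02 and 0 in pan-BC and 2298, 2035 and 2064 in rods, 2937-fold (95% counting interval 813 to 24260, 2 reads in the lower group) lower in pan-BC. Ppara, a nuclear receptor that switches on fatty acid oxidation, had 0, 0 and 1.22 against 1599, 1341 and 1431, 4013-fold (95% counting interval 719.9 to 158500, 1 read in the lower group) lower. Both had a promoter region that was lower in pan-BC. At Hdc it gave 13.6 and 4.6 against 225 and 296 (log2 difference −4.84). Ahrr, the repressor of the aryl hydrocarbon receptor, had 1.06, 4.04 and 11.0 against 4389, 3702 and 3774 and was 736-fold lower (log2 fold change −9.62 ± 0.67, adjusted p = 3.4e-09). The receptor itself, Ahr, was lower too, at 70.2, 63.6 and 90.5 against 713, 751 and 672 (−3.25 ± 0.18).

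Abca13, a lipid transporter of the ABC family, had 1.06, 3.03 and 0 against 1289, 1438 and 1359.5 (999-fold lower). Col4a3, a chain of basement membrane collagen IV, had 9.57, 20.2 and 4.89 against 6754, 5836 and 6159 (541-fold lower). Gulp1, an adaptor for engulfment receptors, had 3.19, 1.01 and 4.89 against 1759, 2148 and 1811 (629-fold lower). None of these 3 is part of the visual cascade as usually described. Plekha2, a phosphoinositide-binding protein, had 6.38, 3.03 and 17.1 against 3645, 4049 and 3907 (437-fold lower), and Gramd2 had 7.45, 7.06 and 6.12 against 3406, 3615 and 3384 (504-fold lower). The unnamed transcripts 6430562O15Rik (1.06, 1.01 and 3.67 against 1557, 1507 and 1313) and Gm5460 (0, 0 and 1.22 against 528, 307 and 350.1, 1095-fold (95% counting interval 196 to 43280, 1 read in the lower group) lower) behaved alike. Adjusted p-values of these 7 genes ran from 8.01e-12 for Gulp1 to 1.46e-08 for Plekha2.

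Among the most abundant genes on the bipolar side were Mgarp, Gnb3, Ckb and Pcp2. Mgarp, a mitochondrial protein, had 102430, 112600 and 88566 normalised reads in pan-BC and 9881, 13000 and 11327 in rods (8.88-fold higher, log2 fold change 3.15 ± 0.22), and Ckb, brain creatine kinase, had 71819, 74546 and 69770 against 10789, 12196 and 10796 (6.40-fold, 2.68 ± 0.21). Mgarp and Ckb were thus abundant in both cells. On the rod side stood Gnb1, Gnat1, Sag and Pde6b. Gnb1, the beta subunit of rod transducin, had 5368, 5088 and 5775 in pan-BC and 1129800, 1618000 and 1295200 in rods, the highest level of any called gene (249-fold lower, −7.95 ± 0.44, adjusted p = 2.52e-10). Transducin subunits, opsins, ribosomal proteins and histones have close relatives or pseudogenes, and the counting could have split their reads.

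The most abundant genes within 2-fold had varied roles. Atp1b2, the beta subunit of the sodium pump, had 43049, 35669 and 40526 in pan-BC and 39350, 60681 and 56936 in rods (log2 fold change −0.38 ± 0.23). The groups of Atp1b2 overlapped. Ncam1, the neural adhesion molecule, had 25252, 23264 and 22606 against 22319, 24094 and 22629 (0.04 ± 0.19), Ywhae, a 14-3-3 protein, 30470, 31006 and 27875 against 23951, 35685 and 27935 (0.05 ± 0.18), and H3f3b, histone H3.3, 31712, 32794 and 27361 against 19897, 34030 and 26281 (0.23 ± 0.19). Tmbim6, an endoplasmic reticulum protein, stood at −0.36 ± 0.14, and the ATP synthase subunits Atp5b and Atp5a1 at 0.10 ± 0.15 and −0.22 ± 0.14. The sign of so small a change depended on the scaling or library for Ywhae, Ncam1 and Atp5a1.

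**Figure D4:**
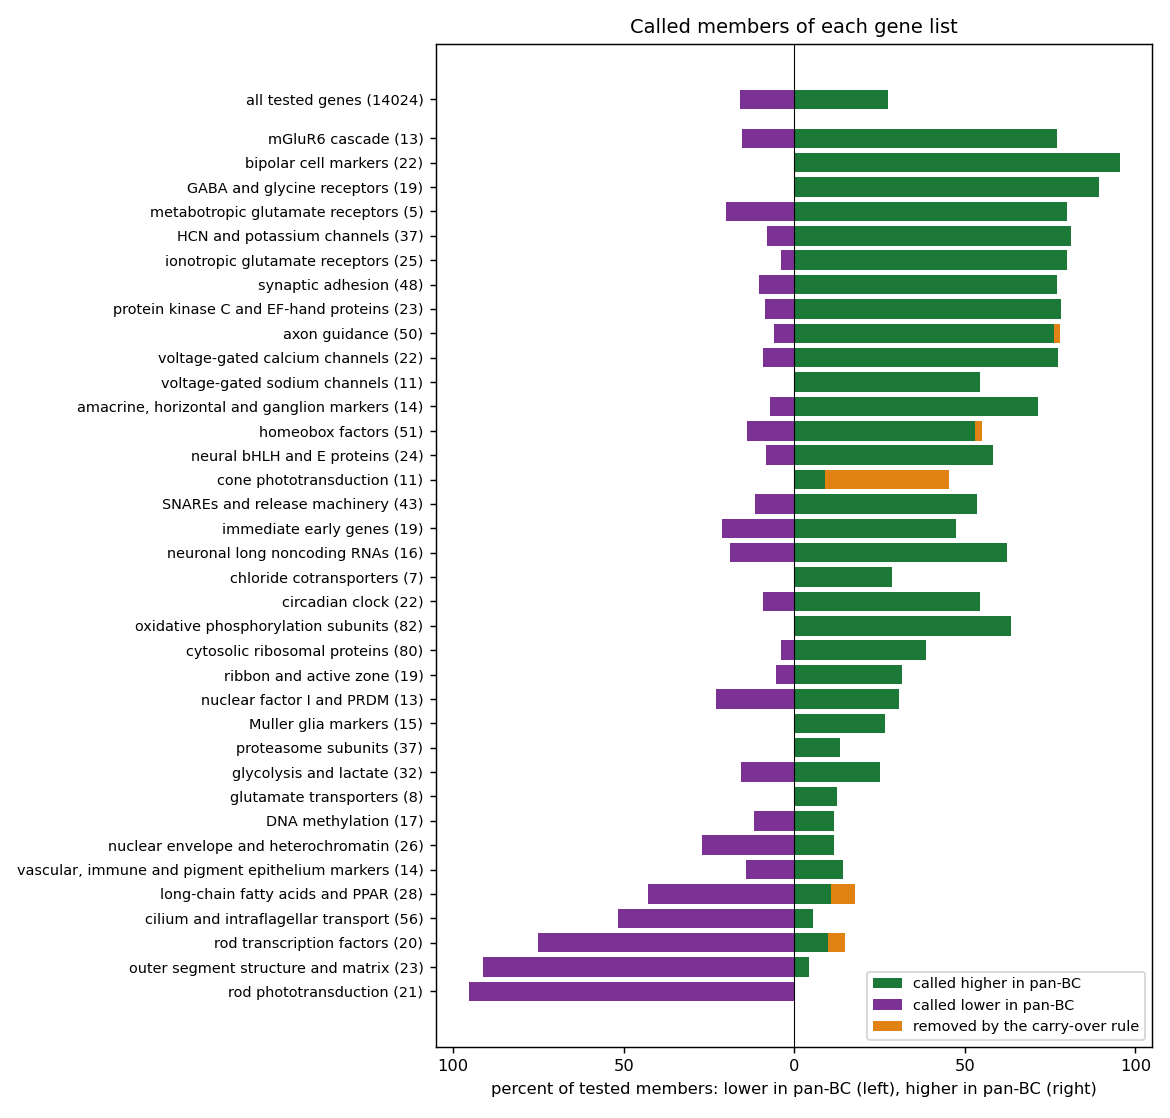
Percent of the tested members of each gene list (number tested in brackets) called lower in pan-BC (left, purple), called higher (right, green) or removed by the carry-over rule (orange), in order of the list's median log2 fold change, with all tested genes at the top. Rod phototransduction has 20 of 21 members on the left, bipolar cell markers have 21 of 22 on the right, and all tested genes have 15.8% on the left and 27.4% on the right.

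Lists of genes by role held 1056 genes, of which 928 were tested, 121 had too few reads to test and 7 were not in the table. Apart from the cone list, counts of called members are to be read beside the shares over all tested genes, 27.4% higher and 15.8% lower. Phototransduction genes of rods were lower in pan-BC almost without exception. Of 21 tested, 20 were lower and none higher, with a median log2 fold change of −5.58 (all tested genes: 15.8% lower, median 0.21). Gnat1, the alpha subunit of rod transducin, had 5177, 4566 and 5496 in pan-BC and 419660, 588370 and 488130 in rods (−6.61 ± 0.20), and Pde6b, the catalytic beta subunit of phosphodiesterase, 1034, 867 and 1378 against 266950, 291270 and 267180 (252-fold lower, adjusted p = 8.78e-15), the largest fall of the list. In each the lowest rod library was far above the highest pan-BC library. Cnga1, the cyclic nucleotide-gated channel, had 333, 347 and 390.3 against 41298, 54715 and 43433 (−7.01 ± 0.20). Of the genes that shut the response off, Sag had 18790, 14424 and 18541 against 357060, 390650 and 323630 (−4.38 ± 0.47), Grk1, the kinase of the visual pigment, 349.9, 309 and 434 against 32877, 35263 and 34197 (−6.56 ± 0.45), and Rgs9, which speeds GTP hydrolysis by transducin, 370.1, 329 and 488 against 18924, 18360 and 18769 (−5.58 ± 0.43). The member not called was Gnb5, the partner of RGS proteins in both cells, at 14929, 14367 and 13721 against 26152, 24752 and 21975 (−0.76 ± 0.13).

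The fall was uneven between members. As a share of the rod level, the pan-BC mean ran from 0.397% for Pde6b to 9.8% for Gngt1, with a median of 1.96% over the 20 called genes. Gnat1 stood at 1.02%, Sag at 4.83%, Guca1a at 7.76% and Gucy2e at 9.29%. Rgs9bp, at 7.94%, is an anchor of RGS9 that bipolar cells also use. The same median was 0.926% for ON-BC, 1.65% for OFF-BC and 19.1% for Nrl-/- photoreceptors. Of its rod level, Gnat1 kept 0.865% (ON-BC) and 0.0751% (OFF-BC), Sag 0.987% and 2.06%. Rod RNA carried along in the sort and expression by bipolar cells cannot be told apart here. In the other direction, the rod level of the 21 bipolar markers called higher was 0.0509 to 18.7% of the pan-BC level, with a median of 0.596%. These shares come from the values that made the calls and are descriptions.

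**Figure D5:**
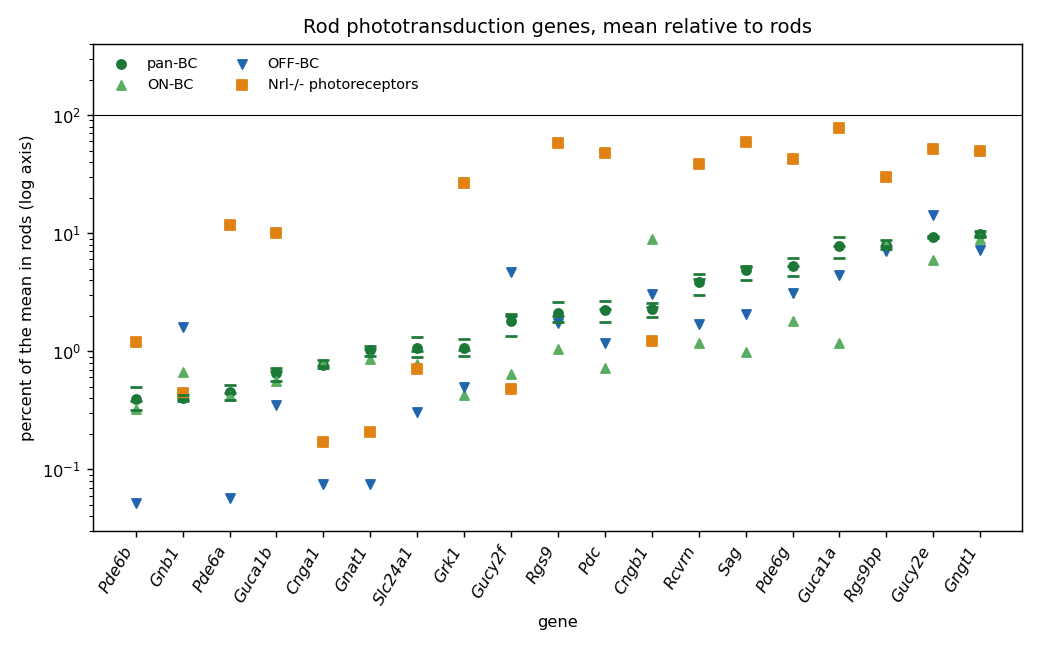
Mean level of 19 of the rod phototransduction genes called lower, as a percentage of their mean level in rods (log axis, line at 100), in pan-BC, ON-BC, OFF-BC and Nrl-/- photoreceptors; dashes are the 3 pan-BC libraries. Pan-BC means lie between 0.397% (Pde6b) and 9.8% (Gngt1), and most Nrl-/- values lie above them.

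Of 11 cone phototransduction genes tested, 1 was called higher and none lower (median log2 fold change 2.39). A further 4 (Gnat2, Gngt2, Cngb3 and Slc24a2) passed the test as higher but were set aside by the carry-over rule. That rule takes out genes far higher in Nrl-/- photoreceptors, a surrogate for blue cones. The count of calls therefore cannot be read against the 27.4% of all tested genes. The called gene was Gnb3, a beta subunit that cone and ON bipolar cells share, with 77742, 74982 and 76117 in pan-BC and 3342, 4433 and 4699 in rods (4.21 ± 0.23, adjusted p = 9.58e-10). Opn1sw, the blue cone opsin, had 50740, 28147 and 42310 against 7389, 7589.5 and 7453 (2.39 ± 0.64, adjusted p = 0.0525). It stood at 681 in ON-BC, 21535 in OFF-BC and 1222300 in Nrl-/- photoreceptors. Opn1sw passed with edgeR, a pseudocount of 5, scaling to library totals, a fit of the 6 libraries alone and a test against 0. By these levels it meets the carry-over rule, so it was not called higher there either. Opn1mw, the green cone opsin, had 316, 243 and 277 against 491, 573 and 528 (−0.93 ± 0.30, adjusted p = 0.986). Neither opsin passed the main test. Gnat2, the alpha subunit of cone transducin, had 10027, 8547 and 8861 against 878, 967 and 966 (3.28 ± 0.15), and Arr3, cone arrestin, 3048, 2367 and 3398 against 1249, 809 and 915 (1.57 ± 0.56, adjusted p = 0.312). Arr3 passed in a fit of the 6 libraries alone and in a test against 0.

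Genes that build and maintain the outer segment were mostly lower as well. Of 23 tested, 21 were lower and 1 higher (median −5.09). Prph2 and Rom1, tetraspanins of the disc rim, had 5438, 4862 and 5149 against 153440, 200800 and 173490 (−5.09 ± 0.40) and 12631, 13233 and 11929 against 93832, 127390 and 110890 (−3.13 ± 0.17). Rom1 kept 11.4% of its rod level in pan-BC and Prph2 2.93%. Rp1, a microtubule protein of the axoneme, had 654, 455 and 664 against 65419, 70526 and 63222 (−6.83 ± 0.44), and Fscn2, a retinal fascin, 95.7, 82.7 and 83.2 against 13480, 17152 and 15682 (−7.45 ± 0.32), the largest fall. The retinoid handlers Abca4 and Rbp3 had 1353, 1256 and 1455 against 19995, 22879 and 23097 (−4.02 ± 0.13) and 5593, 4896 and 6038 against 47427, 62611 and 60077 (−3.36 ± 0.16). Gprin3, a G protein-regulated neurite protein, was the member that rose, with 65.9, 42.4 and 48.9 against 0 in all 3 rod libraries (at least 51.2-fold). Prcd was not in the table, and Mfrp was not tested.

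Many genes of the connecting cilium and of intraflagellar transport were lower in pan-BC. Of 56 tested, 29 were lower, 3 higher and 24 not called (median −1.55). Ift88, a core protein of the anterograde trains, had 436, 598 and 522 against 2105, 2182 and 2360.2 (−2.10 ± 0.14), Cep290, a transition zone protein, 1382, 1420.3 and 1564 against 4984, 5721 and 5957 (−1.93 ± 0.18), and Rpgrip1, the photoreceptor cilium scaffold, 1040.3, 841 and 1330 against 22875, 21918 and 26376 (−4.49 ± 0.24). The groups did not overlap in any of the 3. Bbs7, of the BBSome, showed the largest fall (545, 469 and 520 against 13799, 16708 and 16144, −4.92 ± 0.16). Members that rose included Ift20 (2.03 ± 0.10) and Hspb11 (1.61 ± 0.12).

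The mGluR6 cascade, through which ON bipolar cells answer glutamate, was high in pan-BC. Of 13 tested members, 10 were higher and 2 lower (median 7.58). Grm6, the receptor, had 8301, 7402 and 8617 in pan-BC and 39.8, 51.2 and 113 in rods (7.02 ± 0.55, adjusted p = 3e-08). Trpm1, the cation channel at its end, had 52133, 47907 and 51554 against 97.0, 122 and 197 (8.56 ± 0.23, adjusted p = 3.58e-14). Grm6 and Trpm1 were lower in OFF-BC, at 268 and 6297, than in ON-BC, at 13499 and 56869. Gnao1, the G protein alpha subunit, had 10655, 10834 and 10816 against 201, 194 and 223 (5.71 ± 0.14), Nyx, the anchor nyctalopin, 463, 509 and 475 against 1.94, 1.02 and 1.08 (7.71 ± 0.53), and Rgs11, which ends the G protein signal, 10621, 11207 and 11631 against 48.5, 47.1 and 82.1 (7.58 ± 0.18). The members that fell were Rgs9bp, with 1033, 1088 and 1233 against 14032, 14288 and 13894 (−3.66 ± 0.18), and Lrit3, a transmembrane partner of nyctalopin that photoreceptors make, with 45.7, 28.2 and 47.7 against 408, 401 and 368 (−3.28 ± 0.67).

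Of 22 bipolar markers, all tested, 21 were higher and none lower (median 7.45). Cabp5 had 39537, 43236 and 31929 against 235, 233 and 357 (7.13 ± 0.17), and Pcp2, a modulator of Go signalling, 70763, 65791 and 57605 against 70.8, 89.1 and 173 (9.28 ± 0.25), the largest rise of the list. Rod values of these genes were below 1% of the pan-BC values. Prkca, the protein kinase C used to stain rod bipolar cells, rose much less, with 5417, 5910.4 and 5069 against 978, 1085 and 997 (2.42 ± 0.48, adjusted p = 0.0115). Prdm8 was the marker not called, with 795, 722 and 779 against 353, 281 and 286 (1.32 ± 0.19, adjusted p = 0.121). It was called with edgeR, with scaling to library totals, in a fit of the 6 libraries alone and in a test against 0.

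Most transcription factors of rods were lower in pan-BC. Of 20 tested, 15 were lower, 2 higher and 1, Sall3, set aside by the carry-over rule (median −3.45). Nrl, the leucine zipper factor that sets rod fate, had 133, 126 and 126 in pan-BC and 11476, 16599 and 14469 in rods (−6.76 ± 0.22, adjusted p = 3.61e-13), and Samd7 had 38.3, 24.2 and 28.1 against 8108, 8240 and 7469.5 (−8.01 ± 0.32), the largest fall. Both are close to absent from pan-BC. Crx, the homeodomain factor of photoreceptors, had 9509, 9876 and 9272 against 60823, 71611 and 62285 (−2.76 ± 0.14) and kept 14.7% of its rod level. Neurod1 had 11588, 10397 and 12596 against 39999, 45278 and 40565 (−1.87 ± 0.15). Otx2, which both cells need and which carries GFP in 1 copy in the pan-BC mice, had 9810.1, 10647 and 9409 against 6796, 7638 and 7173 (0.47 ± 0.10, adjusted p = 1). Among the members that rose was Nr1d1, with 14103, 13854 and 15140 against 3697, 4548 and 3765 (1.85 ± 0.13), a nuclear receptor that also belongs to the clock.

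Homeobox factors and their cofactors leaned to the bipolar side. Of 51 tested, 27 were higher, 7 lower and 1, Six6, set aside by the carry-over rule (median 2.63). Of all tested genes 27.4% were higher and 15.8% lower. Lhx3, a LIM factor close to Lhx4, had 611, 845 and 837 against 0.970, 0 and 3.24 (8.54 ± 0.78), the largest rise. Six3, a transcriptional repressor that acts in early eye development, had 583, 619 and 806 against 10.7, 11.3 and 21.6 (5.49 ± 0.26). Six6 had 799, 787 and 678 against 23.3, 37.9 and 33.5 (4.56 ± 0.15) with 4401 in Nrl-/- photoreceptors. Every pan-BC library thus exceeded every rod library for Six3 and Six6, and only Six3 counts as called. Rax, a retinal homeobox factor, showed the largest fall (21.3, 22.2 and 15.9 against 272, 333 and 260.4, −3.80 ± 0.42). Other members that fell included Meis1 (−3.80 ± 0.11), Lmo1 (−3.62 ± 0.28), Pbx3 (−3.28 ± 0.64), Crx and Zfhx2 (−1.74 ± 0.30).

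Of 24 basic helix-loop-helix factors and their regulators, 14 were higher and 2 lower (median 2.59). Bhlhe40, a repressor under clock control, had 7137, 7242 and 7078 against 32.0, 5.12 and 38.9 (8.48 ± 0.54), and Tcf4, an E protein, 8628, 9244 and 8344 against 847, 956 and 917 (3.27 ± 0.11). The pan-BC libraries agreed closely on Bhlhe40, while its rod libraries spread over several-fold at a low level. Hey2, a Notch target, had 15.96, 15.1 and 7.34 against 103, 99.4 and 122 (−3.05 ± 0.55, adjusted p = 0.00249), and the other member that fell was Neurod1. Of 13 nuclear factor I and PRDM genes, 4 were higher and 3 lower (median 0.64), beside 27.4% and 15.8% of all tested genes. Nfia and Nfib, which act late in retinal development, had 7487, 7166 and 6071 against 331, 291 and 385 (4.36 ± 0.19) and 1358, 1244 and 1277 against 39.8, 28.7 and 23.8 (5.38 ± 0.18). Prdm1, which holds back bipolar fate in young rods, fell most (23.4, 7.06 and 39.2 against 739, 749.8 and 816, −5.27 ± 0.62).

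Receptors for glutamate were a further bipolar group. Of 25 ionotropic receptor subunits and auxiliary proteins, 20 were higher and 1 lower (median 5.30). Gria2, the AMPA receptor subunit that blocks calcium, had 6681, 6492 and 7566 against 331, 267 and 265 (4.59 ± 0.15), Grik1, a kainate receptor subunit, 6096, 7308 and 7833 against 18.4, 29.7 and 131 (7.36 ± 0.45), and Grin1, the common NMDA receptor subunit, 459.5, 662 and 513 against 2.91, 5.12 and 1.08 (7.20 ± 0.32). Each of these 3 genes was higher in every pan-BC library than in any rod library. Grik1 stood at 469 in ON-BC and 38804 in OFF-BC. Grin2d, another NMDA receptor subunit, went the other way (6.38, 2.02 and 3.67 against 167, 181 and 183, −5.24 ± 0.58, adjusted p = 3.77e-06), opposite to Grin2b.

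Of 5 metabotropic glutamate receptors tested, 4 were higher and 1 lower (median 6.38). Grm5, a receptor coupled to Gq, had 2659, 2254 and 2699 against 9.70, 19.5 and 19.5 (7.26 ± 0.29), the largest rise. Grm8, the autoreceptor of photoreceptor terminals, had 20.2, 22.2 and 17.1 against 1118, 1049 and 974 (−5.66 ± 0.29, adjusted p = 2.15e-10). Its RNA was thus 52.8-fold higher in rods, but its 3 promoter regions were each more accessible in pan-BC. The region centred at −32 from the start site gave 24.0 and 30.8 in pan-BC and 0 and 4.1 in rods (log2 difference 3.65 ± 0.65), and the strongest, centred at −935, gave 180.0 and 281 against 24.1 and 32.5 (2.96 ± 0.27).

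Receptors for the inhibitory transmitters of amacrine and horizontal cells were higher in pan-BC in nearly all cases. Of 19 tested, 17 were higher and none lower (median 6.41). Gabrr1 and Gabrr2, which form the GABA-C receptor of bipolar terminals, had 15500, 16325 and 14724 against 49.5, 58.4 and 76.7 (7.98 ± 0.16) and 30688, 33740 and 26574 against 115, 170.0 and 241 (7.48 ± 0.23). Rod values of both were below 1% of pan-BC values. Glra1, a glycine receptor subunit, had 1064, 1092 and 1099 against 0.970, 0 and 4.32 (8.95 ± 0.44), and its partner Glrb 411, 411 and 437 against 14.6, 8.19 and 14.0 (5.02 ± 0.35). The members not called were Gphn (0.91 ± 0.11), the gephyrin scaffold, and Gabra2 (1.58 ± 0.82).

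Of 7 chloride cotransporters, which set whether GABA excites or inhibits, 2 were higher and none lower (median 1.83). The shares over all tested genes were 27.4% higher and 15.8% lower. Slc12a5, the chloride exporter KCC2, had 7696, 7748 and 8216 against 1064, 1029.5 and 1142 (2.87 ± 0.10, adjusted p = 1.9e-11), and Slc12a2, the importer NKCC1, 292, 355 and 344 against 267, 227 and 206 (0.50 ± 0.27, adjusted p = 1). Slc12a4 was at a low level (38.3, 46.4 and 35.5 against 1.94, 0 and 11.9, 3.60 ± 0.68). Of 8 glutamate transporters, 1 was higher and none lower (median 0.45), beside the same shares of all tested genes. Slc17a7, which fills vesicles with glutamate in both cells, had 5083, 5209 and 5710.2 against 2857, 3420.4 and 2975 (0.79 ± 0.14), and Slc1a7, the EAAT5 transporter of terminals, 5965, 5279 and 5606 against 4270, 5572 and 5552 (0.14 ± 0.16). The called member was Slc1a6 (37.2, 44.4 and 41.6 against 0, 0 and 1.08, 120.5-fold (95% counting interval 21.2 to 4803, 1 read in the lower group)).

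Both cells have ribbon synapses. Of 19 ribbon and active zone genes, 6 were higher and 1 lower (median 0.66), beside 27.4% and 15.8% of all tested genes. Ctbp2, which also encodes RIBEYE, the main ribbon protein, had 8963, 8414 and 9252 against 5592, 5770.2 and 5458 (0.66 ± 0.11). Bsn and Pclo, the scaffolds bassoon and piccolo, had 858, 731 and 999.6 against 353, 354 and 391 (1.22 ± 0.14, adjusted p = 0.146) and 3246, 3000.1 and 3852 against 1792, 1729 and 1892 (0.89 ± 0.18). These 3 scaffold genes were not called, but Bsn was with scaling to library totals and in a test against 0. Unc13c, a priming factor, had 2336, 2269.7 and 2551 against 2.91, 24.6 and 31.3 (7.33 ± 0.54), and Mpp4, a scaffold of photoreceptor terminals, 1229.6, 1310.4 and 1441 against 33525, 35627 and 32716 (−4.68 ± 0.14, adjusted p = 4.83e-13). Also higher were Erc1 (7.14 ± 0.52), Rims1 (6.89 ± 0.50) and Rimbp2 (6.83 ± 0.37), while Rims2 (−0.12 ± 0.13) and Erc2 (0.26 ± 0.16) were not called.

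Of 43 SNARE and release genes, 23 were higher and 5 lower (median 2.17), beside 27.4% and 15.8% of all tested genes. The paralogs of complexin, the clamp of the SNARE complex, split between the cells. Cplx3 had 49677, 49741 and 45513 in pan-BC and 854, 1243 and 1171 in rods (5.49 ± 0.18), whereas Cplx4 had 10983, 10151 and 8504 against 62095, 78567 and 68593 (−2.82 ± 0.16). Syt4, a synaptotagmin, showed the largest rise (41194, 41074 and 36093 against 88.3, 94.2 and 157, 8.48 ± 0.23), and Sv2c, a vesicle glycoprotein, the largest fall (3.19, 1.01 and 6.12 against 145, 75.8 and 65.9, −4.54 ± 0.63). The core of the machine was in both cells. Stx3, the syntaxin of ribbon synapses, had 4492, 4804 and 4827 against 7526, 9433 and 9239.6 (−0.88 ± 0.13), Syt1, the calcium sensor, 18043, 18760 and 17936 against 8534, 7909 and 7687 (1.18 ± 0.12, adjusted p = 0.149), and Syp, synaptophysin, 18140, 18460 and 17356 against 9235, 10475 and 10405 (0.84 ± 0.14). Snap25 had 83934, 84455 and 78740 against 24254, 41112 and 33986 (1.35 ± 0.23, adjusted p = 0.15), and it was called without rod library 2. Snap25 and Syt1 were also called with scaling to library totals and in a test against 0. Stxbp3 was not in the table.

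Voltage-gated channels were mostly higher in pan-BC. Of 22 calcium channel subunits and CaBP proteins, 17 were higher and 2 lower (median 4.14). Cacna1f, the main calcium channel of rod terminals, had 4343, 3787 and 5035 against 12831, 10521 and 12302 (−1.44 ± 0.15, adjusted p = 0.0122), but the call was lost without pan-BC library 2 and with scaling to library totals. Cacna1d, its close relative, had 967, 861 and 937 against 9.70, 3.07 and 8.65 (6.94 ± 0.30). The auxiliary Cacna2d4 was not called (12947, 12560 and 14138 against 9596, 10966 and 10954, 0.33 ± 0.16). Of the calcium-binding regulators, Cabp4 had 134, 85.7 and 102 against 5296, 6504 and 5935 (−5.79 ± 0.48) and Cabp2 1903, 1782 and 1998 against 7.76, 3.07 and 4.32 (8.36 ± 0.45), so that with Cabp5 the CaBP genes split between the cells.

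Of 11 sodium channel genes, 6 were higher and none lower (median 3.50, or 3.87 with genes without rod reads set at their bound). Scn3a had 601, 566 and 667 against 0, 0 and 5.40 (8.36 ± 0.52), Scn2a1 546, 547 and 569 against 0, 8.19 and 5.40 (7.16 ± 0.58) and Scn8a 1468, 1400.2 and 1608 against 929, 864 and 863 (0.75 ± 0.15, adjusted p = 1). Scn8a was thus detected at a similar order in rods, unlike the other 2. Of 37 HCN and potassium channel genes, 30 were higher and 3 lower (median 5.92). Kcnk3, a leak channel, had 5802, 5284 and 5236 against 8.73, 9.22 and 17.3 (8.80 ± 0.22). Kcnv2, a modifying subunit of photoreceptor potassium channels, had 183, 116 and 221 against 22184, 25370 and 26822 (−7.20 ± 0.27), and Kcnj14 fell with it (−5.90 ± 0.28). The pacemaker channels Hcn2, Hcn3 and Hcn4 were higher (2.75 ± 0.41, 7.41 ± 0.32 and 6.03 ± 0.51).

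Adhesion and guidance molecules were strongly biased to bipolar cells. Of 48 synaptic adhesion genes, 37 were higher and 5 lower (median 4.55). Nrxn3, a presynaptic neurexin, had 18564, 15643 and 18200 against 95.1, 125 and 151 (7.15 ± 0.18). Clstn2, a calsyntenin, had 319, 334 and 311 against 0 in all 3 rod libraries (at least 315-fold). Each of these was at or below 1% of the pan-BC level in rods. Il1rapl1 was at a low level (14.9, 21.2 and 8.56 against 0 in all 3 rod libraries, at least 14.9-fold). Elfn1, by which rods bind mGluR6 on rod bipolar dendrites, had 24.5, 22.2 and 55.1 against 705, 624 and 774 (−4.44 ± 0.76, adjusted p = 0.000523). The other members that fell were Lrit3, Lrit2 (−3.07 ± 0.13), Ntng2 (−2.02 ± 0.30) and Cadm2 (−1.79 ± 0.14).

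Of 50 axon guidance genes, 38 were higher, 3 lower and 1, Epha10, set aside by the carry-over rule (median 4.20). Epha3, an ephrin receptor, had 1119, 1107 and 1145 against 2.91, 2.05 and 0 (8.94 ± 0.65), the largest rise. Sema4a, a transmembrane semaphorin, had 163, 155 and 110.1 against 5.82, 6.15 and 0 (5.28 ± 0.76). Plxnb1, a semaphorin receptor, had 129, 91.8 and 129.7 against 1053, 1026 and 1144 (−3.21 ± 0.19), the largest fall, followed by Plxna2 (−3.04 ± 0.18) and Sema4b (−1.61 ± 0.15). Slits, robos, netrin receptors, ephrins and semaphorins were all represented among the genes that rose, with Slit2 at 7.32 ± 0.54, Robo2 at 6.60 ± 0.28, Unc5d at 6.01 ± 0.43 and Efna5 at 4.85 ± 0.25.

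Calcium-binding proteins of the EF-hand type and protein kinases C were mostly higher. Of 23 tested, 18 were higher and 2 lower (median 4.27). Kcnip3 (DREAM), which binds calcium, DNA and potassium channels, had 1768, 1455 and 1487 against 4.85, 0 and 6.48 (8.79 ± 0.51). Hpcal1, a neuronal calcium sensor, had 63.8, 63.6 and 67.3 against 2851, 2742 and 3278 (−5.48 ± 0.26), opposite to its relatives Hpca (8.00 ± 0.50) and Hpcal4 (4.27 ± 0.16). Prkcb (8.35 ± 0.54) and Prkce (3.09 ± 0.16) rose with Prkca, and Prkcz fell (−1.90 ± 0.13).

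Of 32 genes of glycolysis and lactate transport, 8 were higher and 5 lower (median 0.51), shares near those of all tested genes (27.4% higher, 15.8% lower). Hk2, the hexokinase of aerobic glycolysis, had 1343, 1212 and 1076 in pan-BC and 13600, 16313 and 12929 in rods (−3.56 ± 0.30), and Pfkfb2, which makes an activator of phosphofructokinase, 679, 762 and 893 against 20096, 19805 and 20395 (−4.70 ± 0.12, adjusted p = 1.03e-13). Slc16a1, a lactate transporter, also fell (−4.35 ± 0.14), while Slc16a7, another, rose (746, 907 and 992 against 3.88, 0 and 3.24, 8.32 ± 0.43). Slc16a7 stood at 42.8 in ON-BC and 5271 in OFF-BC. Not called were Slc2a1, the glucose transporter (3002, 3411 and 2632 against 4445, 4006 and 3883, −0.45 ± 0.13), Ldhb (0.32 ± 0.17), Hk1 (9269.7, 8109.5 and 9135 against 19064, 21361 and 21186, −1.22 ± 0.13, adjusted p = 0.13) and Ldha (16636, 18861 and 16576 against 39999, 42950 and 36645, −1.20 ± 0.18, adjusted p = 0.282). Hk1 and Ldha were called by edgeR.

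Genes of very long chain fatty acids and of the PPAR pathway leaned to rods. Of 28 tested, 12 were lower, 3 higher and 2, Elovl5 and Elovl7, set aside by the carry-over rule (median −0.91). Elovl4, which makes the very long chains of disc membranes, had 3001, 2828 and 2523 against 41594, 56805 and 51732 (−4.16 ± 0.14), and Ppargc1a, a coactivator of mitochondrial genes, 319, 272 and 301 against 3021, 3804 and 3766 (−3.56 ± 0.18). With Ppara, the fatty acid oxidation genes Cpt1a (−4.89 ± 0.16) and Acadm (−2.37 ± 0.14) fell as well. Elovl6 rose (1099, 963 and 938 against 69.9, 88.1 and 106, 3.51 ± 0.13), with Fads1 (1.51 ± 0.15) and Fads3 (2.02 ± 0.44).

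Subunits of oxidative phosphorylation were higher in pan-BC in 52 of 82 cases and lower in none (median 1.59). Here and below, the shares over all tested genes were 27.4% higher and 15.8% lower. Cox4i2, an isoform of cytochrome c oxidase, rose most (257, 261 and 252 against 5.82, 12.3 and 18.4, 4.42 ± 0.35). Of 80 ribosomal protein genes, 31 were higher and 3 lower (median 1.25), with Rpl18 at the top (549.9, 632 and 560.4 against 75.7, 99.4 and 90.8, 2.71 ± 0.19) and Rpl29 at the bottom (4.25, 5.04 and 7.34 against 157, 180.3 and 149, −4.66 ± 0.34). Of 37 proteasome subunits, 5 were higher and none lower (median 0.54), led by Psmb10, an immunoproteasome subunit (611, 632 and 566 against 51.4, 71.7 and 50.8, 3.37 ± 0.15). With libraries scaled to their totals the medians of these 3 lists were 1.94, 1.59 and 0.89, and the proteasome count rose from 5 to 13.

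Genes of the nuclear envelope and heterochromatin were of interest because rod nuclei of mice are inverted, with heterochromatin at the centre. Of 26 tested, 7 were lower (all tested genes: 15.8%) and 3 higher, with a median of −0.42. With scaling to library totals 4 were lower, with a median of −0.08. Lmna, lamin A/C, had 412, 452 and 404 in pan-BC and 4.85, 2.05 and 4.32 in rods (6.53 ± 0.26, adjusted p = 4.42e-12). Lbr, the lamin B receptor, had 682, 665 and 686 against 1833, 1869.5 and 2049 (−1.50 ± 0.10), and Lmnb1 38.3, 43.4 and 24.5 against 150.4, 159 and 123 (−2.03 ± 0.31). Lmna was thus higher in pan-BC and Lbr and Lmnb1 lower, the latter 2 losing their call with scaling to library totals. Syne3, a nesprin that ties the nucleus to the cytoskeleton, fell most (17.0, 26.2 and 40.4 against 1389, 1321 and 1367, −5.64 ± 0.35). The heterochromatin proteins Cbx1 (0.42 ± 0.11), Cbx3 (−0.30 ± 0.18) and Cbx5 (0.87 ± 0.14) were not called.

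Of 17 genes that write, read or erase DNA methylation, 2 were higher and 2 lower (median 0.37). Among all tested genes 27.4% were higher and 15.8% lower. The TET dioxygenases, which oxidise methylcytosine, split. Tet1 had 1199.8, 942 and 1153 against 23.3, 19.5 and 20.5 (5.63 ± 0.25) and Tet3 1029, 961 and 1177 against 4330.2, 4188 and 4566 (−2.05 ± 0.14). The methyltransferase Dnmt3a had 3722, 3132 and 4087 against 4773, 4481 and 4894 (−0.38 ± 0.14) and was not called.

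Clock genes and immediate early genes respond to time of day and to handling, and the time of collection is not given in the sources used here. Of 22 clock genes, 12 were higher and 2 lower (median 1.79). Here and for the immediate early genes, the shares over all tested genes were 27.4% higher and 15.8% lower. Arntl, which encodes BMAL1, had 854, 686 and 773 against 3954, 3919 and 4567 (−2.43 ± 0.11, adjusted p = 3.6e-09), whereas its repressor Nr1d1 was higher. Per1 had 719, 753 and 867 against 331, 265 and 289 (1.40 ± 0.30, adjusted p = 0.206). Per1 passed with scaling to library totals, in a fit of the 6 libraries alone and in a test against 0. Dbp (4.50 ± 0.22) and Per2 (2.57 ± 0.21) rose along with Bhlhe40. Of 19 immediate early genes, 9 were higher and 4 lower (median 2.10), or 10 and 2 with scaling to library totals. Fos had 2296, 1241 and 2243 against 636, 289.9 and 399.8 (2.14 ± 0.43, adjusted p = 0.0219), and Egr1 1649.7, 282 and 1801 against 225, 61.5 and 99.4 (3.07 ± 0.77, adjusted p = 0.0194). Both spread widely within the groups, and pan-BC library 2 was the lowest pan-BC library in each. The Fos call was lost without pan-BC library 1 or 3, without rod library 2 or 3 and with DESeq2, and the Egr1 call without pan-BC library 1 or 3 or rod library 2. Egr3 had 19.1, 52.5 and 58.7 against 1.94, 1.02 and 0, 42.0-fold (95% counting interval 14.0 to 206, 3 reads in the lower group), and Ier3 419, 442 and 299.8 against 3954, 3377 and 3154 (−3.19 ± 0.19).

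Of 16 long noncoding RNAs tested, 10 were higher and 3 lower (median 1.91), beside 27.4% and 15.8% of all tested genes. Meg3, an imprinted RNA, had 11530, 11854 and 13056 against 40.8, 26.6 and 111 (7.91 ± 0.37), and Rian (6.96 ± 0.40) and Mirg (6.00 ± 0.37) of the same imprinted cluster rose with it. Vax2os had 532, 669.8 and 554 against 13161, 16139 and 16027 (−4.69 ± 0.23), the largest fall. Without strand information its reads and those of Vax2 cannot be told apart. Miat, with 6.38, 2.02 and 0 normalised reads in pan-BC and 0 in every rod library, was too low to test.

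Markers of other retinal cells gave mixed calls, to be read beside the 27.4% higher and 15.8% lower of all tested genes. Of 15 Müller glia markers tested, 4 were higher and none lower (median 0.62). Sox9 had 279.7, 353 and 357 against 12.6, 19.5 and 32.4 (3.97 ± 0.32), with 25.1 in ON-BC and 1400.4 in OFF-BC. The more abundant glial genes Glul (1.31 ± 0.15), Rlbp1 (−0.27 ± 0.47) and Slc1a3 (−0.97 ± 0.34) were not called. Of 14 amacrine, horizontal and ganglion cell markers, 10 were higher and 1 lower (median 2.97), led by Thy1 with 64.9, 67.6 and 53.8 against 0 in all 3 rod libraries (at least 61.2-fold). Slc6a9, a glycine transporter, fell (278, 273 and 262 against 2427, 2047 and 2339.6, −3.06 ± 0.15). Of 14 vascular, immune and pigment epithelium markers, 2 were higher, Lyve1 and Rgs5 (3.85 ± 0.60), and 2 lower, Pecam1 and Csf1r (−2.23 ± 0.56), with a median of −0.48.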

How the data were processed

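Retinal cells were sorted by FACS and RNA-seq libraries made with a SMARTer kit that does not mark strand. Per the labels and methods, the authors aligned reads to GRCm38/mm10 with STAR (2.7.0d) and counted them per RefSeq gene with HTSeq (1.9). The deposited RNA values are a signal, reads per gene divided by 1 size factor per library: all 230384 values above 0 came out as whole reads (100.0%, tolerance 0.01 reads). The deposited ATAC-seq signal is of the same form, over regions of 200 bases, made with Bowtie2 (2.2.5 in the submitters' processing notes), MACS2 (2.1.1), HOMER (4.8), Picard (2.19.0), SAMtools (1.3) and bedtools (2.24.0). No column stayed unmatched to a sample, and 27 gene names were in date form. How reads shared by several genes were counted is not given in the sources used here.

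Genes were tested with limma (3.58.1, R 4.3.3) on log2(value + 1), so fold changes of low genes are understated. Low genes and regions were removed with edgeR's filterByExpr on the whole reads. The fit held all 15 RNA libraries, or all 12 ATAC libraries, with population as the term. Changes were tested against a log2 threshold of 1 (treat, two-sided) at a false discovery rate of 0.05, after the threshold test of the study. Genes over 16-fold higher in Nrl-/- photoreceptors than in rods and at least 4-fold higher than in pan-BC on that fitted log scale were not called higher. A fold against a group with 0 reads used a floor of 3 reads over the group, and intervals cover counting error only. Replicates of a group differed beyond sampling noise.

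Alternatives were edgeR (4.0.16) and DESeq2 (1.42.0) on the whole reads, other scalings, pseudocounts and filters, leaving out each library, and a replicate block. Same-numbered libraries did not deviate together (correlations −0.029, 0.022 and −0.014), so the numbers were not used as pairs. The script was tested on simulated data. Named genes were the 10 called genes with the largest change in each direction whose libraries do not overlap, the 5 most abundant called genes in each direction, the 8 most abundant within 2-fold, and in each list its preset members and largest rise and fall; other genes named beside them were chosen after their values were seen. The members and lists were chosen with earlier results of these data known. Some genes that the naming rule picks are not reported here.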

Additional observations from a re-analysis of the deposited data

How the results depend on the processing

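The counts of genes called over the whole RNA table, in all and in each direction, stayed within 1.5 times under every alternative run. Between 4638 and 7857 genes were called over the settings of test, scaling, pseudocount, filter and libraries. Leaving out 1 library gave 5731 to 5865 genes, of which 3687 to 3765 were higher and 2044 to 2134 lower in pan-BC (63.6 to 64.3% higher). With the replicate block the count was 6024 genes, 3825 higher and 2199 lower, and 55719 regions; the labels do not tie same-numbered libraries to an animal. Leaving out 1 ATAC-seq library gave 47336 to 50887 regions, 37845 to 40254 higher and 9013 to 10712 lower. With edgeR 19654 regions were lower in pan-BC, and the cause was not tested. The median accessibility difference at genes higher in pan-BC was 2.72 when each region was given to the nearest start site in place of promoters alone.

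The sign turned for 4 named genes, none of them called. Ywhae gave −0.03 with edgeR, −0.01 with TMM and, leaving out 1 library, −0.09 (rod 1) to 0.20 (rod 2). Ncam1 gave −0.02 with edgeR and with TMM and 0 (pan-BC 1) to 0.08 (pan-BC 3). With scaling to library totals Atp5a1 gave 0.13 and Cbx3 0.04. Over 164 named genes, 2735 of 2781 values under an alternative kept direction and side of the threshold. In 13 the gene no longer passed the test and in 25 it newly passed, genes of the carry-over rule included. No list's median changed sign with another scaling or count test. Some counts within lists moved by more. With scaling to library totals, lower calls went from 7 to 4 (nuclear envelope), 4 to 2 (immediate early genes) and 2 to 1 (calcium channels, and vascular, immune and pigment epithelium markers), and higher calls from 5 to 13 (proteasome). With edgeR, lower calls went from 2 to 4 (helix-loop-helix factors), 1 to 2 (ribbon) and 0 to 1 (sodium channels), and with TMM and with DESeq2 higher calls of the DNA methylation list went from 2 to 1. The test was against a 2-fold change, so smaller changes could not be called at any level, and the median SE was 0.53 below 50 normalised reads.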
